A study of Mus musculus with 28 samples.

Results

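The genes described here are the heat shock and J-domain chaperones of mouse frontal cortex. They were chosen by name from the table of read counts: Hspa, Hspb, Hspd, Hspe, Hsph and Hsp90 genes and the numbered Dnaja, Dnajb and Dnajc genes, without pseudogenes. Of 25900 genes in the table, 74 had such a name, and the 63 with a mean of 1 CPM (reads per 1000000 of a library's total) or more over the 28 libraries were kept. The libraries were made from polyA RNA of mice aged 20 months on a C57BL/6 background. Of these, 10 came from mice homozygous for the Q331K change knocked into the TDP-43 gene (HOM), 10 from heterozygous mice (HET) and 8 from wild-type mice (WT). Strain background, age and tissue were shared by all groups. TDP-43 is an RNA-binding protein found in aggregates in amyotrophic lateral sclerosis, and Q331K is a substitution linked to that disease. As a knock-in, the mutant protein is made from the gene's own locus.

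HSP70 proteins bind exposed hydrophobic stretches of unfolded clients in a cycle of ATP hydrolysis that J-domain proteins (the DNAJ families) start and nucleotide exchange factors, among them the HSP110 proteins, end. HSP90 proteins act later on a narrower set of clients, small heat shock proteins hold unfolded proteins without ATP, and HSP60 with HSP10 forms the folding chamber of mitochondria. Part of the family is induced through heat shock factor 1 when unfolded protein builds up in the cytosol, and another part is induced by the unfolded protein response of the endoplasmic reticulum (ER). In neurons HSP70 and its J-domain partners also strip clathrin from synaptic vesicles.

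Promoter sequences are shown for members whose levels are described below, with letter matches to the elements known from the heat shock and ER stress responses. RefSeq promoter windows (build GRCm38.p6, 250 bases before to 50 after the transcription start) were found for 52 of the 63 members. The letters of 3 motifs were searched on both strands: the heat shock element with 3 units, GAANNTTCNNGAA, its 2-unit core GAANNTTC, which the longer motif contains, and the ER stress element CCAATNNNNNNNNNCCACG. The 3-unit heat shock element lay in the windows of 4 members (Dnajb6, Hspd1, Hspe1 and Hsph1), which is 7.69% of the 52, against 0.662% of the 27025 genes with a window. The 2-unit core lay in 13 members, 25% of the 52, against 9.04% of all genes. Among them were 7 of the 9 heat-inducible members with a window and 0 of the 10 ER members. Hspd1 and Hspe1 are neighbours on opposite strands with overlapping windows, and their matches are the same bases read on either strand. Those bases count for both genes in each of these counts of heat shock elements. The ER stress element lay in 3 members (Dnajc3, Hsp90b1 and Hspa5), against 0.137% of all genes. These 3 were among the 10 ER members with a window, and 0 of the 9 heat-inducible members held the element. A match of letters is a description of the window and not a measured binding site. The 250 bases before the start are shown for 7 members, 5′ to 3′ on the strand of the gene, with the matched motifs in capitals. Hspe1 (HSP10, chr1:55087898-55088147, plus strand) and Dnajb6 (chr5:29735648-29735897, plus strand) carry the 3-unit heat shock element, with first bases at -89 and -46 from the start. Hspa1b (an inducible HSP70, chr17:34959239-34959488, minus strand) and Hspb1 (a small heat shock protein, chr5:135887669-135887918, plus strand) carry only the 2-unit core, the first at -104 and -117. Hspa5 (chr2:34771840-34772089, plus strand), Hsp90b1 (chr10:86705445-86705694, minus strand) and Dnajc3 (chr14:118937682-118937931, plus strand) carry ER stress elements, the first at -65, -212 and -105. The Dnajc3 window was not matched to an annotated transcript start.
Hspe1: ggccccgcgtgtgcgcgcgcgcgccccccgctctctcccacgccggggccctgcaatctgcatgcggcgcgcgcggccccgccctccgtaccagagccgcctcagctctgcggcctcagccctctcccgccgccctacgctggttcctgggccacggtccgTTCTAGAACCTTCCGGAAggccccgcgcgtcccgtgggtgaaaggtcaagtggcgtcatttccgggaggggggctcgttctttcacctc
Hspa1b: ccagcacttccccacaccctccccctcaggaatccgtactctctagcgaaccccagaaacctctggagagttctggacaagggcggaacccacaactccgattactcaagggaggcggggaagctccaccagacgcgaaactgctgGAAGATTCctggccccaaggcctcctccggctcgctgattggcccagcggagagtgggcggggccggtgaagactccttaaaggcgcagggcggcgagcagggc
Hspb1: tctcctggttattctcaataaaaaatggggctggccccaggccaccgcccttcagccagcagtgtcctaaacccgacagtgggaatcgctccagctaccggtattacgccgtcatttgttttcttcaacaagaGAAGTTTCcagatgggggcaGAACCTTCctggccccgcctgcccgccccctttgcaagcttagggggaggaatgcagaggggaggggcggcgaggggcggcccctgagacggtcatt
Dnajb6: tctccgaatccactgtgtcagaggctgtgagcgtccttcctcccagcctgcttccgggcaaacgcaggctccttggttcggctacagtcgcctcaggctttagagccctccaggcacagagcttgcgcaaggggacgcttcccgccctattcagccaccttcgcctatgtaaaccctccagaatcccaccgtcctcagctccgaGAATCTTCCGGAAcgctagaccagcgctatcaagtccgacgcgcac
Hspa5: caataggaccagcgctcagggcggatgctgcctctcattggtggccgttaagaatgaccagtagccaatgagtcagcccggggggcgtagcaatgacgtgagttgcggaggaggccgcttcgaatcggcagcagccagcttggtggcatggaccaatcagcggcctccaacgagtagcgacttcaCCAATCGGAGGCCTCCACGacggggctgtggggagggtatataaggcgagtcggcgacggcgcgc
Hsp90b1: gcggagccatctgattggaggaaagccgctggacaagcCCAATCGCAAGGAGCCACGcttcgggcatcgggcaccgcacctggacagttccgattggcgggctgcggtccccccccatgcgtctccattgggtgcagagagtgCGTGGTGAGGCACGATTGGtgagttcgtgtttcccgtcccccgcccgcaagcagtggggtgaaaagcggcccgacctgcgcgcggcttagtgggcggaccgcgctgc
Dnajc3: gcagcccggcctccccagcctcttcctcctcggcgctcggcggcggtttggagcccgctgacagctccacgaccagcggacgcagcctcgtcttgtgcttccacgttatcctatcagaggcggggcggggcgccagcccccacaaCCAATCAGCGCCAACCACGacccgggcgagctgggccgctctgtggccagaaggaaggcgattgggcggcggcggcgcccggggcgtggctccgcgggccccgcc

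Library totals were 30.5 to 62.6 M reads (M, 1000000) in HOM, 45.0 to 74.9 M in HET and 46.5 to 64.1 M in WT, with HOM 2 and HOM 1 the shallowest at 30.5 and 32.8 M. The labels number the libraries but do not tie each to a separate animal. P-values therefore reflect the spread among libraries, part of which may be technical. Counts per gene do not separate the mutant from the wild-type allele and do not check the genotype labels. The 6 markers of cortical excitatory neurons were present in every library, summing to 5076 to 6045 CPM. In bulk tissue, fewer cells of a type and less RNA per cell cannot be told apart.

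The cytosolic chaperones Hspa8, Hsp90ab1 and Hsp90aa1 held 39.5% of the members' summed CPM. Levels between genes were compared as CPM per kilobase of exon (GENCODE M21). Hsp90ab1, the constitutive cytosolic HSP90, stood highest at 458 CPM per kb, followed by Hspa8, the constitutive HSP70 that uncoats clathrin, at 357, and by Hsp90aa1, the more inducible HSP90, at 203. The ER chaperones Hsp90b1 (GRP94) and Hspa5 (BiP) had 104 and 69.7 CPM per kb. Of the J-domain genes, Dnaja2 and Dnaja1, which serve cytosolic HSP70, had 65.6 and 29.9, Dnajc5 (cysteine string protein of synaptic vesicles) 60.6, Dnajc6 (the neuronal auxilin) 60.1, Dnajb5 35.9 and Dnajb1, the classical inducible HSP40, 19.6 CPM per kb. The mitochondrial pair Hspd1 (HSP60) and Hspe1 had 59.6 and 29.7, and the exchange factors Hspa4 and Hsph1 46.8 and 44.6. Inducible HSP70 genes were low, at 3.42 CPM per kb for Hspa1b and 2.80 for Hspa1a. The small heat shock genes were also low, led by Hspb8 at 5.97 and Hspb1 at 4.81, and the lowest member was Hspbap1 at 0.770 CPM per kb. By share of all member reads in CPM, the 3 HSP90 genes made up 27.6%, the 10 HSP70 genes 25.9%, the 25 DNAJC genes 21.1%, the 3 HSP110 genes 8.47%, the 9 DNAJB genes 7.79%, the 4 DNAJA genes 6.04%, HSP60 and HSP10 2.14%, and the 5 small heat shock genes 0.286%. Hspbp1, an HSP70 exchange factor, and Hspbap1, which fit the name pattern without being small heat shock proteins, made up 0.640%.

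**Figure D1:**
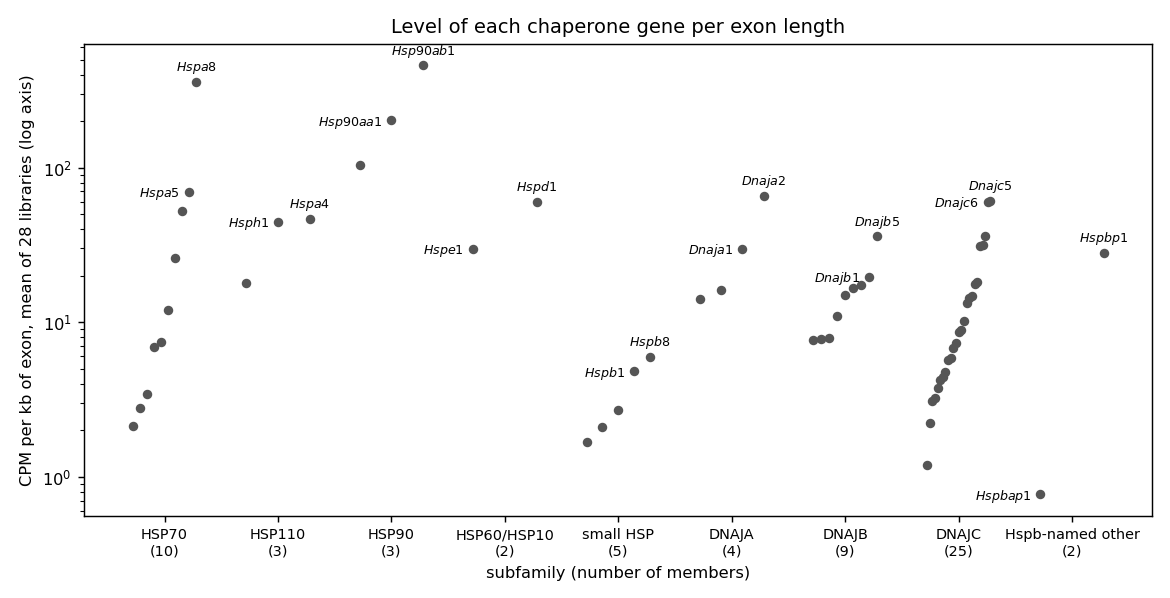
Mean level of each of the 63 members, in CPM per kilobase of exon on a log axis, grouped by subfamily (each point is the mean over the 28 libraries). Hsp90ab1, Hspa8 and Hsp90aa1 lie highest, at 458, 357 and 203 CPM per kb, and the inducible HSP70 genes Hspa1a and Hspa1b lie at 2.80 and 3.42.

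Just inside the 1 CPM limit were Hspb11 (4.31 CPM), which encodes an intraflagellar transport subunit and is counted here with the small heat shock genes by name, Hspb6 (3.83) and Hspb3 (2.10). Just outside were Dnajb3 (0.604), Hspa1l (0.490) and Hspb7 (0.413). Of the 11 names below the limit, 2 had no read in any library, Dnajb8 and Dnajc5g. A limit of 2 CPM would keep 63 genes and a limit of 0.5 CPM 64.

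HOM libraries, with 2 mutant alleles, were first compared with WT libraries. The J-domain genes Dnajc13, Dnajb6 and Dnajb14 fell, and the atypical HSP70 gene Hspa12b rose. These 4 of 63 members passed an adjusted p of 0.05 (edgeR quasi-likelihood test, adjusted over all 16110 genes tested), 1 higher and 3 lower, where 7.61% of all genes tested were called, 3.9% higher and 3.71% lower. All 63 members passed the filter on low counts. Their called share of 4 in 63 was near that background, so the count is not a result about the chaperones. At an unadjusted p under 0.05 there were 17 members, 2 higher and 15 lower, where 24.6% of all genes reached that level. Of the 16110 genes tested, 2125 were higher and 1837 lower at that level. The log2 fold changes were small, with a median of -0.03 over the members, 45 of the 63 below 0, and a median of 0.0050 over all genes tested, 47.7% of them below 0. Levels from here on are CPM scaled by TMM, whose factors lay between 0.9878 and 1.019.

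**Figure D2:**
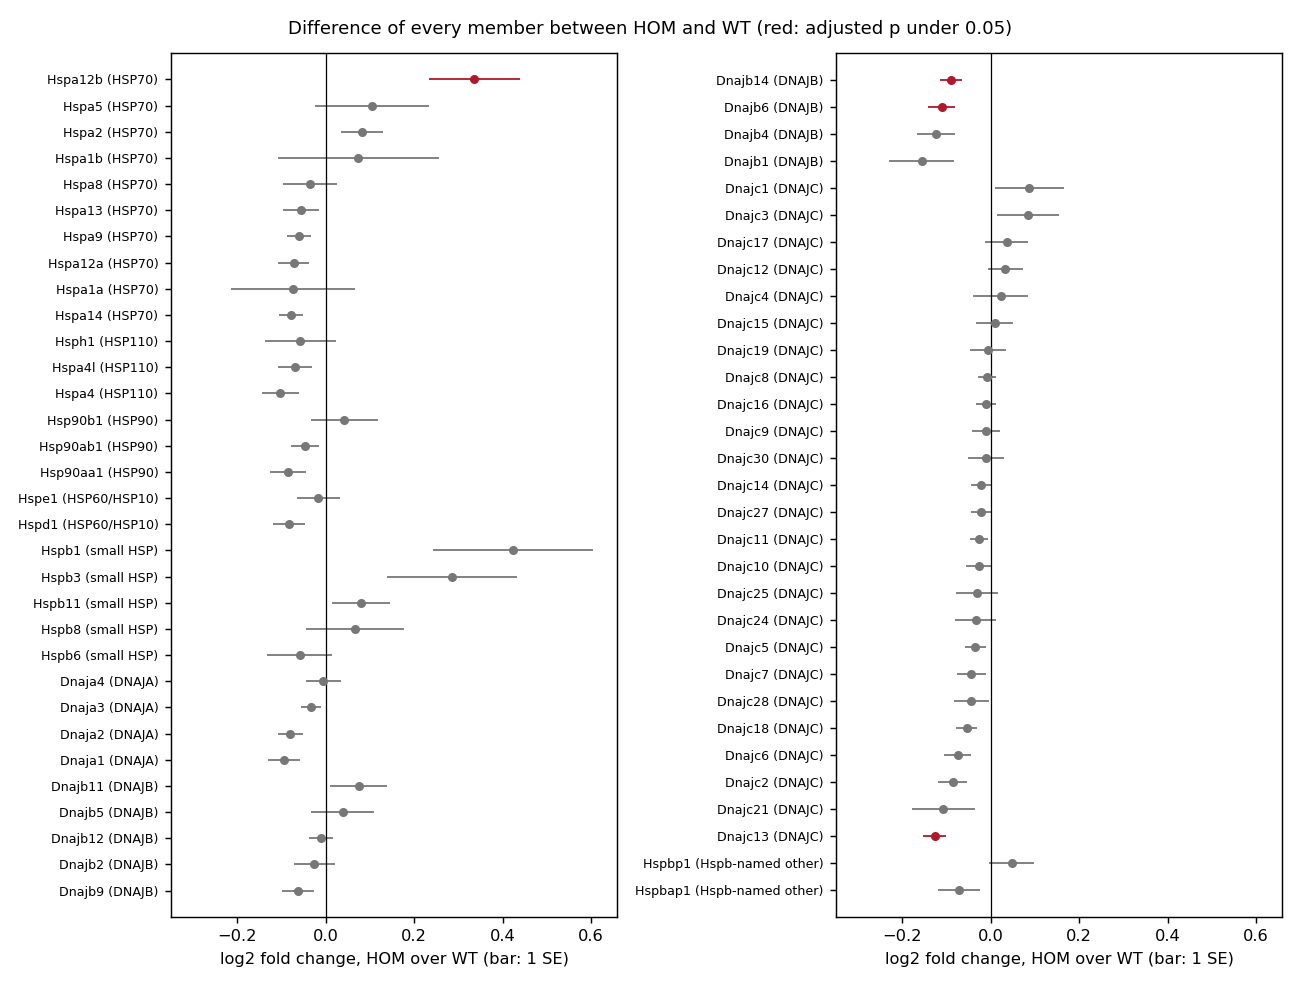
Log2 fold change of HOM over WT for all 63 members, with bars of 1 standard error (edgeR fit of all 28 libraries), red where the adjusted p is under 0.05. The 4 called members are Dnajc13, Dnajb6 and Dnajb14 on the lower side and Hspa12b on the higher side.

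Dnajc13 encodes RME-8, a J-domain protein of endosomes that recruits HSP70 to recycling membranes (chr9:104151597-104262930, minus strand, GRCm38). It had 74.0 CPM in the lowest, 80.5 in the median and 82.2 in the highest HOM library, and 76.5, 82.0 and 84.3 CPM in HET, against 83.6, 85.3 and 89.8 CPM in WT. Each of the 10 HOM values was below the lowest WT value, and it was the only member whose HOM and WT libraries did not overlap, where 38 genes of all tested were separated upwards and 36 downwards. It averaged 78.8 ± 3.22 CPM in HOM (SD, n = 10) and 81.2 ± 2.63 in HET (n = 10), against 86.0 ± 2.45 in WT (n = 8). HOM over WT was -0.13 on the log2 scale (SE 0.03, edgeR adjusted p = 0.0036), a fold of 0.916. In 9 of 10 HET libraries it also lay below the lowest WT library, and HET over WT was -0.08 with an edgeR adjusted p of 0.390. Within genotypes its level moved against the summed red blood cell markers (r = -0.67, Spearman's rho = -0.60, n = 28, permutation p = 0.00015, adjusted over 80 pairs 0.012; r = -0.63 without HOM 1 and HET 6). That sum averaged 93.8 ± 35.8 CPM in HOM and 84.1 ± 20.0 in HET, against 92.4 ± 34.5 in WT, with 3 of 10 HOM libraries above the WT mean.

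Dnajb6 encodes a cytosolic and nuclear J-domain protein known for keeping polyglutamine proteins from aggregating (chr5:29735688-29786478, plus strand). It had 88.3 CPM in the lowest, 97.5 in the median and 102.7 in the highest HOM library, and 94.0, 100.5 and 110.9 CPM in HET, against 99.8, 103.9 and 109.2 CPM in WT. All 10 HOM values were under the WT mean and 7 under the lowest WT value. It averaged 96.8 ± 4.41 CPM in HOM (SD, n = 10), against 104.6 ± 3.31 in WT (n = 8), and HOM over WT was -0.11 on the log2 scale (SE 0.03, edgeR adjusted p = 0.0237). Its exons overlap Gm5129 on the other strand, so reads of the pair cannot be told apart. Leaving out WT 2 gave an edgeR adjusted p of 0.0522.

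Dnajb14 encodes an ER membrane protein whose J-domain faces the cytosol (chr3:137867675-137916557, plus strand). It had 107.5 CPM in the lowest, 121.0 in the median and 123.5 in the highest HOM library, and 118.5, 125.1 and 128.2 CPM in HET, against 122.7, 125.6 and 132.2 CPM in WT. Of the 10 HOM values 9 were under the lowest WT value, and HOM 2, a shallow library, lay farthest down. HOM over WT was -0.09 on the log2 scale (SE 0.02, edgeR adjusted p = 0.0278). Within genotypes its level ran against the summed cortical excitatory neuron markers by rank (rho = -0.61, n = 28, permutation p = 0.00092, adjusted over 80 pairs 0.0448) and not past the threshold by Pearson's r (-0.46, adjusted p = 0.617; r = -0.61 without HOM 2 and HET 3). That sum averaged 5623 ± 306 CPM in HOM and 5598 ± 173 in HET, against 5388 ± 207 in WT, and its part in the difference was not tested. The call was lost without WT 6 (edgeR adjusted p = 0.0715) or without WT 8 (0.0527).

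Hspa12b encodes a distant relative of HSP70 known from endothelial cells (chr2:131127280-131146321, plus strand). It had 5.03 CPM in the lowest, 8.82 in the median and 10.9 in the highest HOM library, and 5.99, 8.15 and 10.1 CPM in HET, against 5.94, 6.66 and 8.36 CPM in WT. Of the 10 HOM libraries 7 lay above the highest WT library and 1, HOM 10, below the lowest. On the log2 scale the difference was 0.34 (SE 0.10, edgeR adjusted p = 0.0433), a fold of 1.26. The call was lost in 18 of the 28 fits that left out 1 library, with adjusted p up to 0.0939 without WT 6, and it was 0.00549 without HOM 10. The 6 endothelial markers summed to 238 ± 17.9 CPM in HOM and 232 ± 20.1 in HET, against 216 ± 10.2 in WT. All 6 had a positive log2 fold change of HOM over WT, and Cdh5 (0.21) and Pecam1 (0.18) passed (edgeR adjusted p = 0.0107 and 0.0439). Within genotypes Hspa12b and the endothelial sum had r = -0.25 (rho = -0.15, n = 28, permutation p = 0.230, adjusted over 80 pairs 0.764). The part of vessel content in the higher level in HOM was not tested beyond these values.

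**Figure D3:**
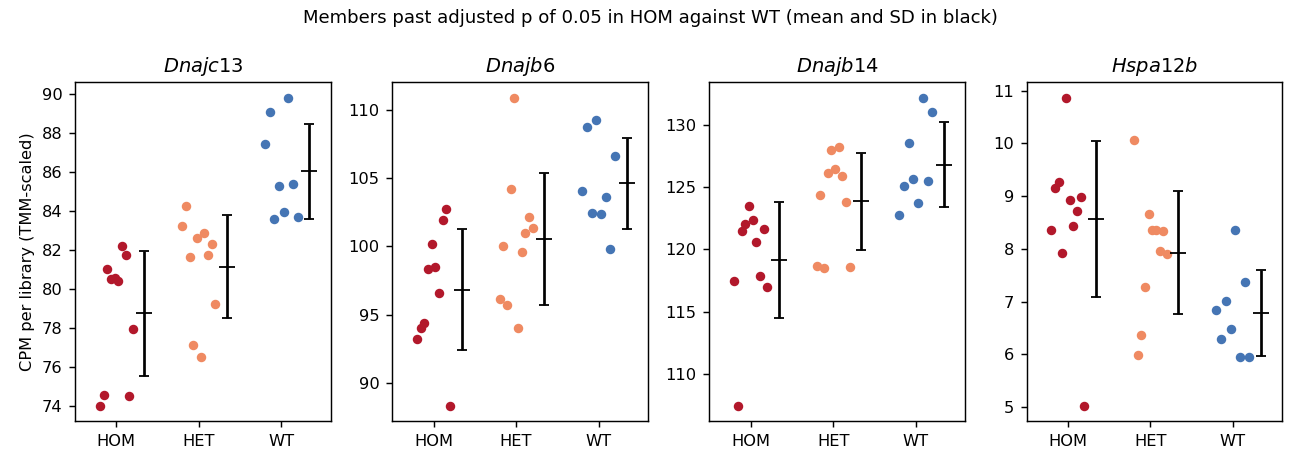
CPM of Dnajc13, Dnajb6, Dnajb14 and Hspa12b in each library (points), with the mean and SD of the 10 HOM, 10 HET and 8 WT libraries. For Dnajc13 all 10 HOM points lie below the lowest WT point, and for Hspa12b 7 HOM points lie above the highest WT point and 1 below the lowest.

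Markers of other cells also moved between the genotypes. Of the 6 markers each, 3 of microglia, 2 of astrocytes and 2 of meningeal fibroblasts were called higher in HOM over WT. The microglial sum was 406 ± 29.4 CPM in HOM and 373 ± 16.1 in HET, against 366 ± 19.2 in WT, and the meningeal sum 59.8 ± 20.1 in HOM and 55.1 ± 8.99 in HET, against 43.7 ± 5.31 in WT. Of the 6 interneuron markers 1 was higher and 2 were lower. With the mean scores of meningeal, choroid plexus, striatal and endothelial markers as covariates, 0 of 63 members and 121 of all genes were called by edgeR. In that fit Dnajc13 stood at -0.08 on the log2 scale (adjusted p = 0.220), Dnajb6 -0.07 (0.382), Dnajb14 -0.09 (0.198) and Hspa12b 0.42 (0.150). The log2 fold change of Dnajb14 and Hspa12b was no smaller than without the covariates, while those of Dnajc13 and Dnajb6 were smaller. These shifts were not tested, and the covariates held no microglial, astrocyte or interneuron markers.

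The heat-inducible members as a list were not called. Of 12 genes, 0 were higher and 0 lower in HOM over WT by edgeR, 6 had an unadjusted p under 0.05 (1 higher, 5 lower), and the median log2 fold change was -0.07 with 10 below 0. DESeq2 and limma voom also called 0 of the 12. Together they summed to 4554 ± 332 CPM in HOM (range 3913 to 5108) and 4665 ± 385 in HET (4346 to 5486), against 4736 ± 93.3 in WT (4627 to 4893). The medians of 4557 CPM in HOM and 4454 in HET lay below the lowest WT library. Of the 10 HOM libraries only 2, HOM 8 (4957) and HOM 9 (5108), lay above the WT mean, and both exceeded the highest WT library. In HET, HET 1 (4968), HET 5 (5003) and HET 10 (5486) exceeded it. Most mutant libraries thus lay below the WT range and a few above it.

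Dnajb1 had 51.3 CPM in the lowest, 57.5 in the median and 83.5 in the highest HOM library, and 57.0, 60.6 and 78.6 in HET, against 61.4, 65.6 and 74.0 in WT. Among the 10 HOM libraries 7 were under the lowest WT value and 1, HOM 8, above the highest. On the log2 scale HOM over WT was -0.16 (SE 0.07, edgeR adjusted p = 0.185), and without HOM 8 it was -0.22 with an adjusted p of 0.0156. Dnajb1 stayed uncalled in the other 27 of the 28 fits that left out 1 library, with edgeR adjusted p up to 0.306. Hspa1a, one of the stress-induced HSP70 genes, had 6.30, 7.18 and 14.1 CPM in HOM and 7.02, 8.10 and 14.1 in HET, against 6.26, 7.92 and 10.4 in WT, as lowest, median and highest library. Its near-identical copy Hspa1b had 6.48, 8.57 and 19.1 CPM in HOM and 7.49, 9.38 and 17.0 in HET, against 7.47, 8.61 and 10.9 in WT. In both genes the highest HOM library was HOM 8 and the highest HET library HET 1, and the remaining libraries overlapped between genotypes. The log2 fold changes of HOM over WT were -0.07 for Hspa1a and 0.07 for Hspa1b (edgeR adjusted p = 0.788 and 0.843). Reads can be shared between the copies, so their split is uncertain. Hspb1, an inducible small heat shock gene, had 3.65, 5.10 and 9.79 CPM in HOM and 2.83, 4.6 and 8.92 in HET, against 2.88, 4.23 and 5.15 in WT, and its highest libraries were again HOM 8 and HET 1. On the log2 scale the difference was 0.42 (SE 0.18, edgeR adjusted p = 0.144), and 9 of 10 HOM libraries lay above the WT mean.

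Hspa8 had 1237, 1502 and 1836 CPM in HOM and 1404, 1444 and 1973 in HET, against 1461, 1539 and 1647 in WT, as lowest, median and highest library. On the log2 scale HOM over WT was -0.04 (95% interval -0.16 to 0.09, edgeR adjusted p = 0.764). Hsph1, the inducible exchange factor of the HSP110 group, had 251.4, 302 and 401 CPM in HOM and 276, 314 and 450 in HET, against 316, 324 and 352 in WT, a log2 fold change of -0.06 (adjusted p = 0.702). For both genes HOM 10 was the lowest HOM library, HOM 9 the highest HOM library and HET 10 the highest of all. On the log2 scale HOM over WT was -0.08 for Hsp90aa1 (edgeR adjusted p = 0.193), and Hsp90ab1 had -0.05 (0.367), Hspd1 -0.08 (0.146) and Hspe1 -0.02 (0.870). Dnaja1 had -0.09 (0.108) and Dnajb4, a further cytosolic partner of HSP70, -0.12 (0.0747). Dnajb4 averaged 66.6 CPM in HOM and 70.1 in HET, against 72.7 in WT, with 6 of 10 HOM libraries below the lowest WT library. Without HOM 8 its edgeR adjusted p was 0.0229, and in the 27 other fits that left out 1 library it stayed uncalled, with adjusted p up to 0.130. Exons of Dnaja1 overlap Smu1, and those of Hspd1 overlap Hspe1, on the other strand, so these reads cannot be told apart.

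Members of the ER moved little between genotypes. Of 12, 0 were higher and 1, Dnajb14, was lower in HOM over WT, and the median log2 fold change was -0.01 with 7 below 0. The list summed to 1401 ± 114 CPM in HOM and 1424 ± 136 in HET, against 1377 ± 77.4 in WT. Hspa5, the HSP70 of the ER lumen and a target of the unfolded protein response, had 206, 298 and 384 CPM in HOM and 180, 307 and 404 in HET, against 202, 283 and 336 in WT, as lowest, median and highest library. Its lowest library was HOM 10 in HOM, HET 2 in HET and WT 6 in WT, and the groups overlapped over most of their range. On the log2 scale HOM over WT was 0.10 (SE 0.13, edgeR adjusted p = 0.659). Hsp90b1 had 0.04 (0.778) and Dnajc3, a J-domain co-chaperone of the ER lumen, 0.08 (0.487). Of 14 further genes of the unfolded protein response, 0 were called, with a median of 0.10 and 4 below 0. Creld2, an ER stress gene, had 0.21 (edgeR adjusted p = 0.213) and the transcription factor gene Atf4 -0.05 (0.304).

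Of the 5 endocytic and synaptic members only Dnajc13 was called, and all 5 had a negative log2 fold change with a median of -0.04. Dnajc6 averaged 347 CPM in HOM and 355 in HET, against 366 in WT (log2 fold change -0.08, edgeR adjusted p = 0.113), with all 10 HOM libraries below the WT mean and 1 below the lowest WT library. Dnajc5 had -0.04 (0.368). Among the 8 mitochondrial members 0 were called, with a median of -0.02 and 7 below 0, and among the 5 nuclear and ribosome-bound members 0, with a median of -0.01 and 4 below 0. Hspa14 and Dnajc2, which form a ribosome-bound complex in human cells, were not called. Hspa14 averaged 31.5 CPM in HOM and 32.04 in HET, against 33.2 in WT (-0.08, edgeR adjusted p = 0.0799), and Dnajc2 28.8 in HOM and 29.0 in HET, against 30.6 in WT (-0.09, 0.0931). Hspa14 was called by DESeq2 (adjusted p = 0.0396) and by limma voom (0.0277). Dnaja2 had -0.08 (edgeR adjusted p = 0.0761, and 0.0298 without HOM 9), Hspa4 -0.10 (0.126, and 0.0479 without HOM 9), and Dnajb5 0.04 (0.788). In the 27 other fits that left out 1 library Dnaja2 and Hspa4 stayed uncalled, with edgeR adjusted p up to 0.150 and 0.200. Of the small heat shock genes, Hspb8, a partner of the autophagy co-chaperone Bag3, had 0.07 (0.759), Hspb3 0.29 (0.226), Hspb6 -0.06 (0.660) and Hspb11 0.08 (0.477).

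Partners of the chaperones outside the family were read from the same fit. Of 17 co-chaperones of HSP70 and HSP90, 0 were higher and 1 was lower: Sgtb, a brain-enriched co-chaperone with tetratricopeptide repeats, averaged 146 ± 4.49 CPM in HOM and 150 ± 7.15 in HET, against 158 ± 5.98 in WT (log2 fold change -0.11, edgeR adjusted p = 0.0166). Sugt1, an HSP90 co-chaperone, had -0.10 (0.0853), and the list's median was -0.02 with 11 below 0. Of 14 HSP70 exchange factors, among them the members Hsph1, Hspa4, Hspa4l and Hspbp1, 0 were called (median -0.03, 8 below 0), with the mitochondrial factor Grpel2 at -0.09 (0.101). Of the 3 heat shock factors 0 were called: Hsf1, the main activator of the heat shock response, averaged 34.3 ± 2.36 CPM in HOM and 33.9 ± 2.06 in HET, against 31.6 ± 1.5 in WT (0.12, edgeR adjusted p = 0.0645), and Hsf2 had -0.03 (0.602). Of 8 subunits of the TRiC chaperonin, which folds actin and tubulin, 0 were called (median -0.03, 7 below 0), with Cct6a at -0.09 (0.151) and Cct2 at -0.04 (0.244). Of 4 J-domain proteins with other names 0 were called, with Sec63, of the ER translocon, at -0.03 (0.700).

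HET libraries, with 1 mutant allele, were compared with WT libraries in the same way. By edgeR 0 of 63 members passed and 0% of all genes were called. At an unadjusted p under 0.05 there were 5 members (Dnajc13, Hspa12b, Dnajc2, Hspb3 and Dnajc25), against 9.6% of all genes. DESeq2 and limma voom called 0 members and 12 and 14 genes of all tested. HET over WT was -0.08 for Dnajc13 (edgeR adjusted p = 0.390), -0.06 for Dnajb6 (0.536) and 0.22 for Hspa12b (0.501). In HOM over HET 0 of 63 members passed by edgeR, where 0.0372% of all genes were called (0.0124% higher, 0.0248% lower), and 4 members had an unadjusted p under 0.05 (Dnajb14, Dnaja3, Dnajc11 and Dnajc12) against 8.54% of all genes. DESeq2 and limma voom called 0 members there too. In a fit of the level on the number of mutant alleles, which rests on the same libraries, Dnajc13 (-0.06 per allele on the log2 scale, edgeR adjusted p = 0.00318), Dnajb6 (adjusted p = 0.0204), Dnajb14 (0.0232) and Hspa12b (0.0418) passed, 4 of 63, 1 higher and 3 lower, where 7.78% of all genes did, 3.99% higher and 3.79% lower.

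Some members varied widely between libraries. The ratio of the highest to the lowest of the 28 libraries had a median of 1.3 over the members, from 1.11 for Dnaja3, the mitochondrial J-domain partner, to 3.45 for Hspb1, 2.88 for Hspa1b, 2.63 for Hspb3, 2.25 for Hspa1a, 2.23 for Hspa5 and 2.13 for Hspa12b. The SD of log2 CPM was larger in HOM than in WT for 12 of the 12 heat-inducible members, with a median ratio of 2.27, and larger in HET than in WT for 12 of 12, with a median ratio of 2.15. Over all members the SD was larger in HOM than in WT for 54 of 63, with a median ratio of 1.56, and over all 16110 genes for 70.66%, with a median ratio of 1.24. The HET to WT ratio was 1.45 over the members and 1.07 over all genes. No test was made of these spreads. HOM 10 was the lowest of all libraries for 20 of the 63 members and held the lowest sum over all members, 8153 CPM, and the highest microglial sum, 476 CPM. HET 10 was the highest for 11 members. How often these libraries were lowest or highest over all genes tested was not computed, so these counts are not a result about the chaperones.

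**Figure D4:**
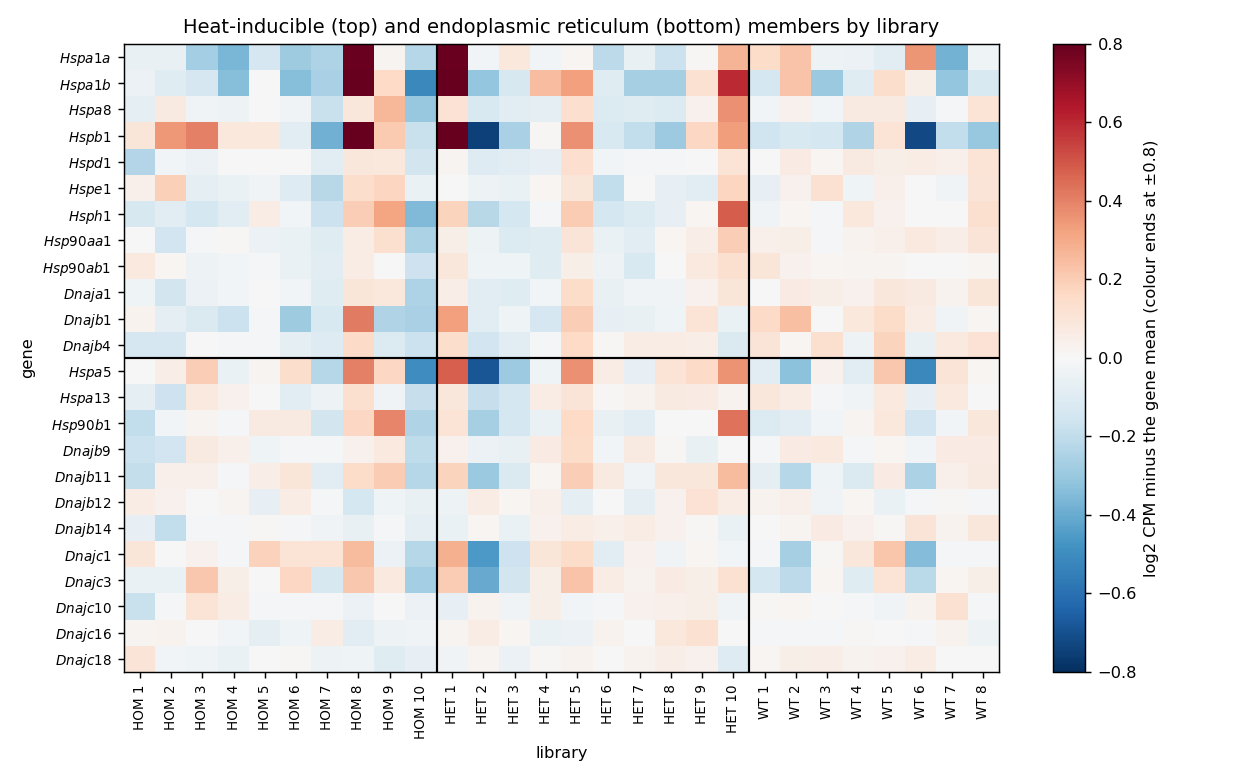
Log2 CPM minus the gene's mean over the 28 libraries for the 12 heat-inducible members (upper rows) and the 12 ER members (lower rows), with libraries in columns from HOM through HET to WT and the colour scale ending at -0.8 and 0.8. HOM 8 and HET 1 are high in Hspa1a, Hspa1b and Hspb1, HOM 9 and HET 10 in Hspa8 and Hsph1, and HOM 10, HET 2 and WT 6 are low in Hspa5.

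The heat-inducible members varied together between HOM libraries and between HET libraries, while between WT libraries 26 of their 66 pairs had a negative r. Each gene's log2 CPM was taken relative to the mean of its genotype and compared over the 28 libraries. The 66 pairs had a median Pearson r of 0.59, and 41 of them had a positive r past an adjusted p of 0.05 (permutation within genotypes, adjusted over 132 pairs), 44 by Spearman's rho. Within HOM the median r was 0.60 with 0 of 66 pairs negative, within HET 0.64 with 1 negative, and within WT 0.12, with r down to -0.60. These medians were not tested against each other. The WT values rest on 8 libraries, and the SD of these genes was larger in HOM and HET (median ratios to WT of 2.27 and 2.15). The r values of the genotypes are therefore not directly comparable. Without the 2 libraries farthest from the median of the first gene, 33 pairs passed. Over all 1953 pairs of members the median r was 0.07 and 7.27% lay above 0.6. Libraries shared their depth, scaling and tissue content between genes, which enters every r. The closest pair was Hspa8 and its exchange factor Hsph1, with r = 0.94 and rho = 0.90 (n = 28, permutation p = 1e-05, the smallest that 100000 resamples can give, adjusted p = 0.00011). It was 0.91 within HOM, 0.98 within HET and 0.86 within WT, and 0.88 without HOM 9 and HET 10. Dnaja1 and Hsp90aa1 had r = 0.88 (rho = 0.82), with 0.95 within HOM, 0.83 within HET and 0.46 within WT.

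For Dnajb1, Hspa1a, Hspa1b and Hspb1 other libraries stood highest. Dnajb1 and Hspa1b had r = 0.78 and rho = 0.63 (n = 28, permutation p = 0.00021, adjusted p = 0.00116), 0.88 within HOM, 0.65 within HET and 0.82 within WT. Without HOM 8 and HET 1 the r over all genotypes was 0.46 with an adjusted p of 0.0619. The r within WT, 0.82, holds neither of these libraries and comes from 8 libraries. Hspa1b and Hspb1 had r = 0.81, 0.63 without the same libraries and 0.05 within WT. Dnajb1 and Hsph1, though both heat-inducible, had r = 0.34 and rho = 0.34 (n = 28, permutation p = 0.123, adjusted p = 0.191), and Dnajb1 and Hspa8 had r = 0.30 (adjusted p = 0.253). HOM 8 and HET 1 had 83.5 and 78.6 CPM of Dnajb1, while HOM 9 and HET 10, highest in Hspa8 and Hsph1, had 52.9 and 60.2. The difference between these correlations was not tested.

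The ER members split into a set around Hspa5 and the rest. Over their 66 pairs the median r was 0.11, with 22 positive and 1 negative pair past the threshold (15 positive without the 2 farthest libraries). Dnajc3 and Hspa5 had r = 0.94 and rho = 0.92 (n = 28, permutation p = 1e-05, adjusted p = 0.00011), 0.92 within HOM, 0.97 within HET and 0.92 within WT, and 0.89 without HOM 10 and HET 2. Of the 10 ER members with a promoter window, Dnajc3, Hspa5 and Hsp90b1 held the ER stress element, and Dnajb11 did not. Whether the element bears on these correlations was not tested. Hspa5 had r = 0.92 with Dnajb11 (ERdj3), 0.83 with Dnajc1 (a membrane J-domain partner of BiP), 0.76 with Hsp90b1, 0.73 with Hspa13 and 0.48 with Dnajb9 (ERdj4, adjusted p = 0.0239). The Dnajb9 pair did not pass by Spearman's rho (0.43, permutation adjusted p = 0.0556) or without HOM 1 and HOM 10 (r = 0.38, adjusted p = 0.129). Hspa5 and Dnajb14, the called ER gene, had r = -0.11 (adjusted p = 0.659). The negative pair, Dnajc18 and Hsp90b1, had r = -0.50 (adjusted p = 0.0419), which was -0.16 without HOM 1 and HET 10.

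**Figure D5:**
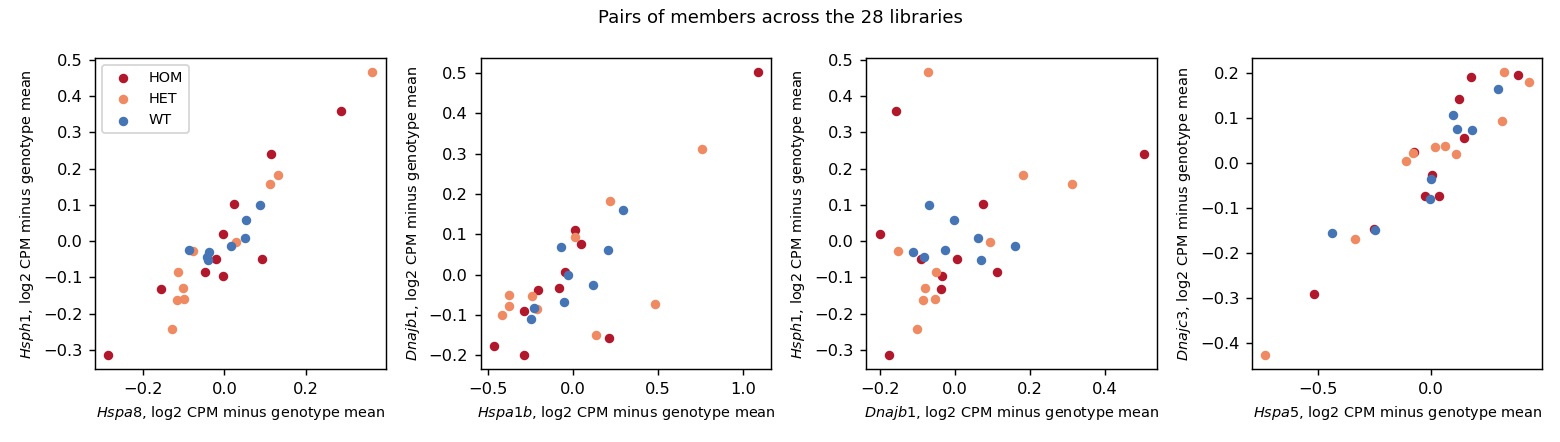
Log2 CPM relative to the genotype's mean for 4 pairs of members, 1 point per library, coloured by genotype. Hspa8 with Hsph1 (r = 0.94) and Hspa5 with Dnajc3 (r = 0.94) follow a line in all 3 genotypes, Hspa1b with Dnajb1 (r = 0.78) is drawn out by HOM 8 and HET 1, and Dnajb1 with Hsph1 (r = 0.34) is scattered.

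The same pattern reached genes outside the family, in pairs examined after the first correlations were seen. Of 14 unfolded protein response genes 13 varied with Hspa5 past an adjusted p of 0.05 (permutation, adjusted over 31 pairs), with a median r of 0.85. The highest were the disulfide isomerases Pdia4 (0.94) and Pdia6 (0.93), the ER exchange factor Hyou1 (0.91), Sdf2l1 (0.91), Manf (0.90) and Creld2 (0.88), and Atf4 was the exception at 0.29 (adjusted p = 0.149). Of 17 co-chaperones 9 varied with Hsph1, among them Stip1 (0.89), which bridges HSP70 and HSP90, the HSP70-interacting protein St13 (0.85), Chordc1 (0.85) and the HSP90 activator Ahsa1 (0.82). The share of all genes tested that vary with Hspa5 or Hsph1 at this threshold was not computed. These counts therefore do not show that the relation is particular to the listed genes. Of the 80 pairs of 8 members with 10 summed marker lists, 1 passed by Pearson's r, that of Dnajc13 with red blood cells given above, and by Spearman's rho that pair and Dnajb14 with cortical excitatory neurons passed.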

How the data were processed

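PolyA RNA of frontal cortex was sequenced in 28 libraries. The authors deposited whole-number read counts for each gene and library, with no normalization. Per the labels' protocols, libraries were made with a stranded kit after a shortened fragmentation, and the submitters' processing notes name Trim Galore 0.4.3, HISAT2 2.0.5 and the build GRCm38. How reads were assigned to genes (tool, strand, annotation) is not given in the sources used here, so reads of overlapping genes on opposite strands cannot be told apart, which touches 15 of the 63 members.

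The 57 gene identifiers with several rows (122 of 25965 rows) were summed, which left 25900. Each column matched the title of 1 library, which also gives its genotype. All 118 pairs of libraries of 1 genotype differed beyond sampling noise, with a chi-square over its degrees of freedom of at least 6.371. Counts were filtered with filterByExpr (16110 genes), scaled by TMM and tested with edgeR 4.0.16 in R 4.3.3 (quasi-likelihood, robust, two-sided) jointly in the 28 libraries, with 1 mean for each genotype, adjusted by Benjamini-Hochberg over all genes at a threshold of 0.05. The biological coefficient of variation was 8.457%. The script was tested on simulated data. Alternatives were DESeq2 1.42.0, voom with quality weights in limma 3.58.1, other scaling and filters, marker scores as covariates, a replicate block and fits without single or paired libraries. A fit without 4 libraries chosen by their levels of the members was tried and is not used here, because samples may not be picked by the outcome.

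Correlations used log2 CPM (prior count 2) centred on the genotype means and 100000 permutations within genotypes, with scipy 1.17.1 in Python 3.11.15. Exon lengths came from GENCODE M21 and promoters from RefSeq (GRCm38.p6). Of the listed genes 3 were held under older names (Drd1, Hbb-bs and Hbb-bt) and matched by identifier. The members and lists were chosen with earlier results of these data known. Named are members called in any test, the 10 with the smallest p in HOM over WT, the heat-inducible list, the 2 highest per kb of each subfamily and the 3 on each side of the 1 CPM limit. From each pathway list with genes outside the family, the called genes and the 2 with the smallest p are named. A gene this rule names is not reported here. Other genes named in the text were picked after their values were seen.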

Additional observations from a re-analysis of the deposited data

Results flagged for a closer look

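Single libraries stood apart from the rest of their genotype in 15 of the 90 groups of values examined. The groups covered 28 named members, the library totals and the share of reads in the members. The gap of such a library to its nearest neighbour was large against the range of its group. The limit on the gap is set to be passed in about 1 in 20 groups of independent, normally distributed values. Members were measured in the same libraries and many varied together, so the count of 15 cannot be set against that rate. HOM 8 was the highest HOM library in Hspa1a at 14.1 CPM, Hspa1b at 19.1 CPM, Hspb1 at 9.79 CPM, Dnajb1 at 83.5 CPM and Dnajb4 at 77.1 CPM. Among HET libraries, HET 1 was the highest in Hspa1a at 14.1 CPM and HET 10 the highest in Hspa8 at 1973 CPM. HOM 10 was the lowest HOM library in Hspa12b at 5.03 CPM, Dnaja2 at 169.8 CPM and Dnajc6 at 309.9 CPM, and HOM 2, a shallow library, was the lowest in Dnajb14 at 107.5 CPM. HOM 9 was the highest HOM library in Hspb3 at 3.07 CPM. The remaining values were Hspa14 in HET 10 at 29.2 CPM, the lowest HET library, Dnajc2 in HET 5 at 32.1 CPM, the highest HET library, and Hsp90ab1 in WT 1 at 1468 CPM, the highest WT library. The cause of these values was not tested.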

How the results depend on the processing

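Of 4 members called in HOM over WT, only Dnajc13 kept its call in all fits but the one with marker scores. The other tools called 5 members each (DESeq2, limma voom), and 3 were called with no count filter and 4 with either other scaling, with a filter of 1 CPM in 8 libraries and with the replicate block. The count was 2 in a fit of only the groups compared, 0 with marker scores as covariates, 1 without HOM 1 and HOM 2, and 1 without WT 6 and HOM 3, and for the slope 0, 2 and 1 in the last 3. Without 1 library it ran from 2 to 5, with 2 without WT 2, WT 6 or WT 8, and for the slope from 2 (without WT 6) to 6. It was 0 throughout in HET over WT and in HOM over HET. Dnajb6 was also lost without HOM 1 and HOM 2 (adjusted p = 0.0581) and without WT 6 and HOM 3 (0.0606), Dnajb14 in a fit of only the groups compared (0.0529) and without the same pairs (0.0552 and 0.0729), and Hspa12b with no count filter (0.0543), in a fit of only the groups compared (0.0576) and without these pairs (0.076 and 0.130). Hspa14 was called without HOM 1 (0.042) or HOM 7 (0.0354), and not in the 26 other fits that left out 1 library (up to 0.139). Over all genes HOM over WT gave 737 calls with the block, 121 with marker scores and 509 without WT 6 and HOM 3, against 1226 as reported, and 595 to 1345 without 1 library. The slope gave 821, 142 and 608, against 1254, and 681 to 1401. HET over WT gave 12 with DESeq2, 14 with voom, 1 with no scaling or with the 1 CPM filter, 4 with only the groups compared, 2 without HOM 1 and HOM 2, and 0 to 3 without 1 library. HOM over HET gave 40, 42, and 3 with marker scores, against 6, and 3 to 15. Signs turned only in uncalled members: Hspa1a was 0.0118 with marker scores and 0.000367 without WT 6 and HOM 3, Hsp90ab1 0.0094 with marker scores, and Hspb8 -0.18 with marker scores, -0.0398 without WT 6 and HOM 3 and, without 1 library, -0.0037 (HOM 3) to 0.0971. Without 1 library Hspe1 ran from -0.0409 to 0.0020 (HOM 7) and Hspa1b from -0.11 (HOM 8) to 0.121. The cause of these differences was not tested. Same-numbered libraries did not deviate together (26 pairs, r from -0.164 to 0.183, 3 best with their own number), so the numbers are not read as pairing, and with the replicate block 4 members were called. With DESeq2 size factors or library totals, the mean log2 scaling of HOM relative to WT libraries differed from that of TMM by at most 0.0038. Without the shallow HOM 1 and HOM 2 the log2 fold changes were -0.11 for Dnajc13, -0.10 for Dnajb6, -0.07 for Dnajb14 and 0.33 for Hspa12b.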
